A study of Mus musculus with 4 samples.

Results

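The Rab GTPase genes described here are 54 of the 21044 genes in the deposited FPKM table, taken as every protein-coding gene whose symbol is Rab followed by a number and at most a letter and a digit. The rule reads names and no expression value. It takes in more than the endosome and the phagosome. By known main site, 6 of the 54 were placed with the early endosome, 13 with recycling and the plasma membrane, 5 with the late endosome and lysosome, and 6 with the phagosome and lysosome-related organelles. A further 12 belong to the endoplasmic reticulum (ER) and Golgi, 8 to regulated secretion, and 4 to the cilium or to atypical Rab proteins.

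Rab proteins are small GTPases that sit on membranes in a GTP-bound form and are drawn off them in a GDP-bound form, and each marks a particular compartment. Guanine nucleotide exchange factors load them with GTP, GTPase-activating proteins end the active state, and a lipid tail added by geranylgeranyl transferase holds them on the membrane. Microglia, the resident macrophages of the brain, engulf cells, synapses and myelin, and a phagosome matures by exchanging Rab5 for Rab7 before it fuses with lysosomes.

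RNA-seq was performed on microglia taken from the corpus callosum, the large white matter tract that joins the hemispheres, at postnatal day 7. The 2 WT libraries (genotype label wt) came from Lag3 fl/fl mice, whose Lag3 gene, an immune checkpoint receptor, can be deleted by Cre recombinase. The 2 cKO libraries (genotype label ko) came from Lag3cKO-Cx3 mice, a name that points to a Cx3cr1-driven deletion, and Cx3cr1 is used by microglia and also by other macrophages and by monocytes. The labels do not say whether the WT mice carried the driver, which sex the mice were, or how many animals went into each library. Every p-value below therefore weighs a difference against the spread among these 4 libraries alone, which may be technical.

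Lag3 was at 387 and 683 CPM (read counts scaled to a common library size, with edgeR's TMM factors for composition) in WT replicates 1 and 2, and at 35.4 and 17.1 CPM in cKO replicates 1 and 2, lower in both cKO libraries. Cx3cr1, the gene of the driver, was at 6443 and 6554 CPM in WT and at 3404 and 3034 CPM in cKO. Total counts ranged from 14645187 to 16770162. All 12 microglial markers had counts in every library, with sums between 23495 and 27658 CPM. The cKO replicate 2 library stood apart. Its log2 CPM correlated with the others across genes at r between 0.783 and 0.802, against 0.872 to 0.910 among the other 3, and 12787 genes had a count there against 14840 to 15899 elsewhere. Its summed astrocyte markers (12 listed, 9 counted in every library) were at 547 CPM against 189 to 254 CPM. Fgfr3, Gjb6 and S100b were at 0 in some library, and in cKO replicate 2 these were Gjb6 and S100b. Neutrophil and monocyte markers (12 listed, 7 counted in every library) summed to 201 CPM there against 24.8 to 50.3 CPM. Ngp, Camp, Ltf, Ly6g and Mmp8 were at 0 in some library, and in cKO replicate 2 this was Mmp8. Neuronal markers (12 listed, 9 in the count table, 2 counted in every library) summed to 79.2 CPM there against 11.03 to 25.0 CPM. Of the 79.2 CPM, Map2 alone gave 53.9 CPM. Snap25, Stmn2, Rbfox3, Gad1, Gad2, Slc17a7 and Syn1 were at 0 in some library. In cKO replicate 2, 5 of the 9 were at 0, more than in any other library (Snap25, Stmn2, Rbfox3, Gad2 and Slc17a7). Map2, Tubb3, Gad1 and Syn1 were highest there. Sums of some other lists followed the groups, though not each gene in them. Oligodendrocyte markers (10 listed, 8 in the count table, 6 counted in every library, Mog and Mobp at 0 in some) summed to 123 and 116 CPM in WT and to 226 and 151 CPM in cKO. Endothelial markers (9 listed, 7 in the count table, 3 counted in every library, with Cldn5, Flt1, Kdr and Esam at 0 in some) summed to 18.9 and 21.8 CPM in WT and to 26.7 and 28.3 CPM in cKO. Erythroid markers (6 listed, 4 in the count table, 2 counted in every library, Hba-a2 and Alas2 at 0 in some) summed to 3.57 and 4.85 CPM in WT and to 11.2 and 12.5 CPM in cKO. Sums of oligodendrocyte precursor, pericyte, border-associated macrophage and lymphocyte markers overlapped between the groups. The part of these cell types in the results below was not tested. In RNA from many cells, fewer cells of a type and less RNA per cell cannot be told apart.

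Rab genes had much the same summed level in all 4 libraries, and a few of them made up most of it. Summed over the 54 genes, FPKM (fragments per kilobase of transcript, scaled for depth, so a level per length) came to 1620 and 1662 in WT and to 1706 and 1638 in cKO. The 10 most abundant members held 81.5% and 80.3% of this sum in WT and 79.7% and 83.8% in cKO. Rab1b, which acts between the ER and the Golgi, ranked 75th of the 18459 counted genes by WT FPKM. Rab7, the late endosomal Rab, ranked 219th, and Rab1a, the close relative of Rab1b, ranked 270th. These 3 genes alone made up 48.7% to 53.1% of the summed Rab FPKM in the 4 libraries. Rab31 of the early endosome (355th), Rab8a and Rab8b of the exocytic route to the plasma membrane (525th and 627th) and Rab32 of lysosome-related organelles (661st) came next. At the other end, 11 members had a mean under 1 CPM over all libraries, among them Rab17 and Rab25, which are known from epithelia. The plot of FPKM by role shows a wide range of levels within each compartment, while all 6 early endosomal members reached 5 CPM on average.

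**Figure D1:**
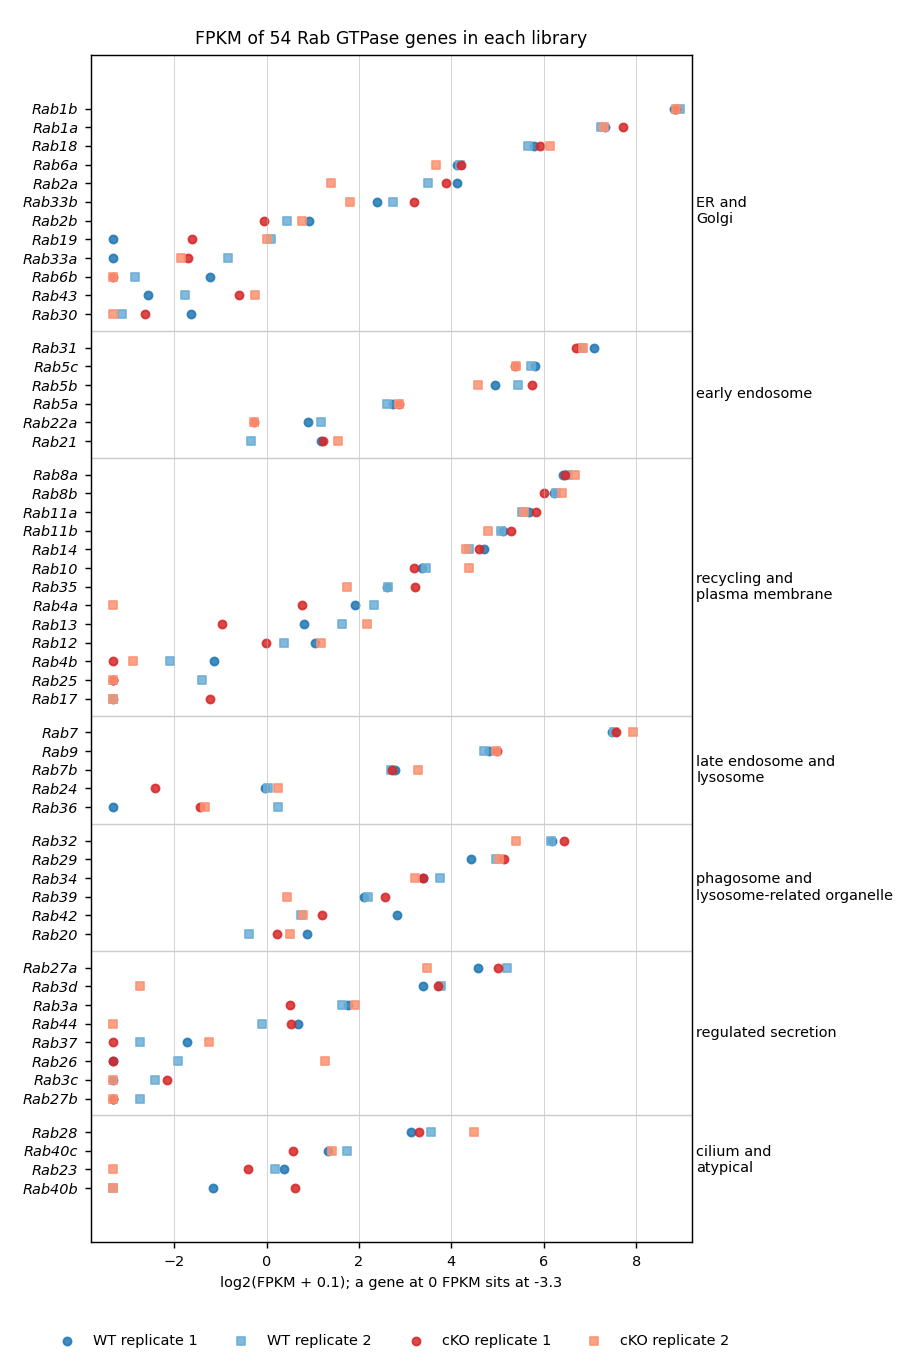
FPKM of the 54 Rab genes on a log2(FPKM + 0.1) axis, grouped by role, with 1 point per library (circles replicate 1, squares replicate 2, blue WT, red cKO). The 4 points of Rab1b, Rab8a and Rab11a lie close together, while among low members single libraries fall to 0, most often cKO replicate 2 with 10 members uncounted.

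By compartment, ER and Golgi members held the largest summed FPKM, with 709 and 737 in WT and 776 and 719 in cKO. Recycling members summed to 295.4 and 295.1 in WT and to 292 and 312 in cKO. Early endosomal members summed to 233 and 218 in WT and to 208 and 192 in cKO. Both cKO libraries thus lay below both WT libraries. Rab31 alone held 135 and 112.7 of these sums in WT and 103.5 and 114.6 in cKO, overlapping between the groups. Late endosomal and lysosomal members summed to 214 and 219 in WT and to 227 and 285 in cKO, so both cKO libraries lay above, and most of the excess was in cKO replicate 2. Rab7 alone held 178 and 185 of the late endosomal sums in WT and 189 and 243 in cKO. Both orders of the sums were the same in TMM-scaled CPM. The late endosomal sum then differed by less than 1 CPM between WT replicate 2 (578.5 CPM) and cKO replicate 1 (579.4 CPM). The sums of phagosomal members (117 and 122 in WT, 141 and 88.2 in cKO) and of secretory members (39.1 and 54.5 in WT, 48.0 and 17.4 in cKO) overlapped between the groups, with cKO replicate 2 lowest in each. With 2 libraries against 2, an exact two-sided permutation test cannot give a p below 0.33, so these sums were not tested.

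**Figure D2:**
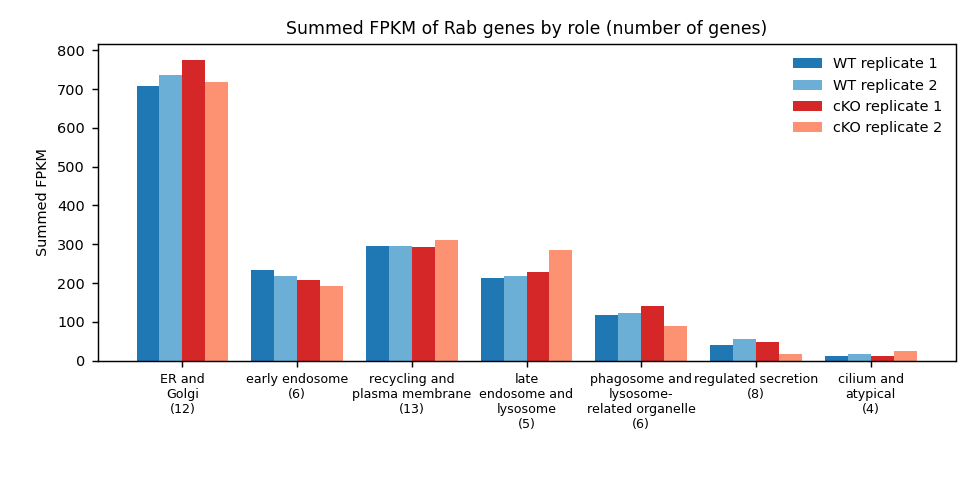
Summed FPKM of the Rab genes of each role, 1 bar per library, with the number of genes under each role. Early endosomal sums run from 233 and 218 in WT down to 208 and 192 in cKO. Late endosomal sums run from 214 and 219 in WT up to 227 and 285 in cKO. Rab31 holds the largest part of each early endosomal sum and Rab7 of each late endosomal sum.

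Deletion of Lag3 left no Rab gene called as changed. Of the 54 members, 46 had enough counts for edgeR's quasi-likelihood test, none of them through counts in 1 group alone. At a Benjamini-Hochberg adjusted p under 0.05, 0 members passed, and so did 0 of all 13086 genes tested, so percent called was 0. DESeq2 called 0 members, beside 0.387% of its genes. At an unadjusted edgeR p under 0.05 there were 0 members, against 4.65% of all genes, and the lowest unadjusted p of a member was 0.0623, for Rab22a. Lag3 itself had an adjusted p of 0.9997 in edgeR and 1.46e-20 in DESeq2, so an adjusted edgeR p over the threshold does not show that a gene stayed the same. The lone cKO library left without cKO replicate 1 is cKO replicate 2. In that fit the lowest log2 fold changes of tested members were -10.15 for Rab23, -9.86 for Rab4a, -9.20 for Rab44 and -7.94 for Rab3d. All of these had 3 counts or fewer in cKO replicate 2.

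The precision was highest for the abundant members. All 14 members at a mean of 100 CPM or more had group means within 1.5-fold of each other. Their log2 fold changes were at most 0.52 in size, with standard errors (SE) from 0.14 to 0.58. Over the 34 members at a mean of 5 CPM or more, the median log2 fold change of cKO over WT was -0.07, beside -0.02 over the 9426 genes at that level. In 4 of these members both cKO libraries lay above both WT libraries, where 17.1% of all genes did. In 5 members both lay below, where 19.1% of all genes did, and in the other 25 the groups overlapped. Shares of 4 and 5 in 34 were not above those backgrounds.

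**Figure D3:**
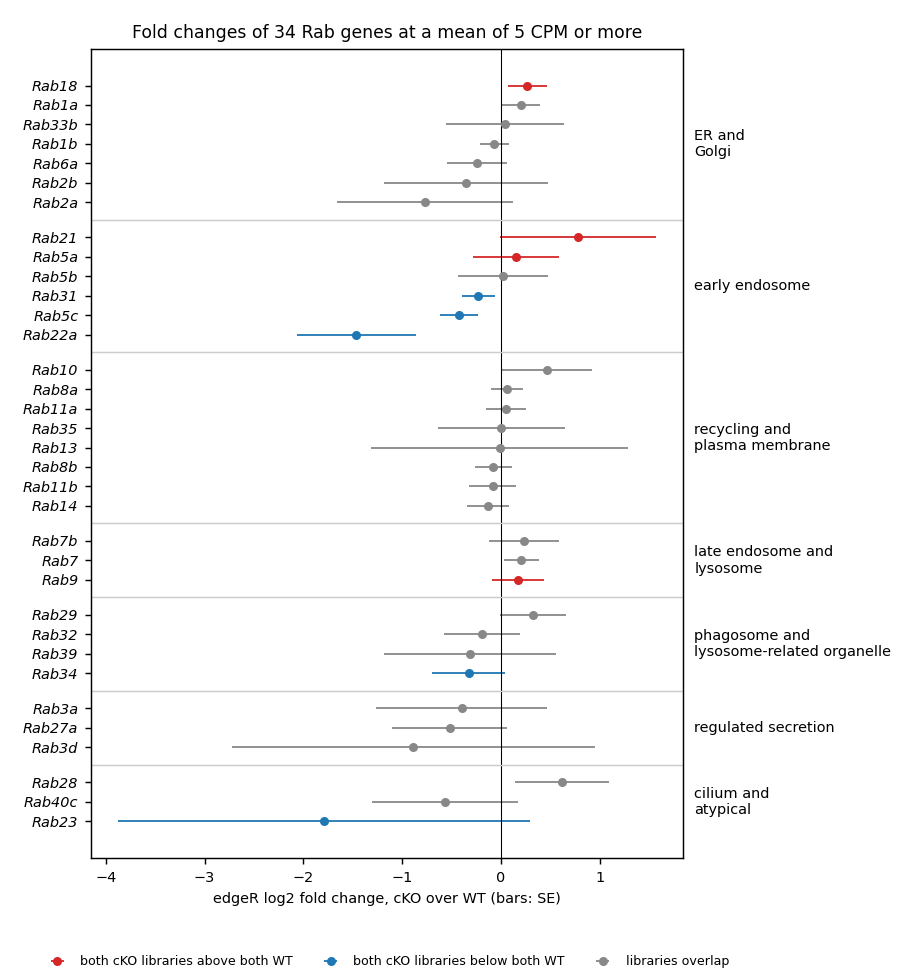
Log2 fold change of cKO over WT from edgeR for the 34 Rab genes at a mean of 5 CPM or more, grouped by role, with bars of 1 SE. Red marks the 4 genes with both cKO libraries above both WT libraries, blue the 5 with both below, grey the 25 whose libraries overlap; bars are short for abundant genes such as Rab1b (SE 0.14) and long for Rab23 (SE 2.09).

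Of these 9 non-overlapping genes, 5 belong to the early endosome, and its 6 members differed in direction. Both cKO libraries lay above both WT libraries in 2 of the 6 (17.1% of all genes) and below in 3 (19.1%). With 6 genes these shares were not tested. The orders of Rab31 and Rab21 rest on the scaling and on 1 library, as given below. The P-loop, the stretch that grips the phosphates of GTP, is shown for all 6 early endosomal members. They share it and yet differ in base sequence, which bears on how well reads can be assigned. Each line gives 24 bases of P-loop code in capitals (the 8 codons for G, 4 residues of any kind, G, K and S or T) with 18 coding bases on either side, from GENCODE M21 on GRCm38.
Rab5a: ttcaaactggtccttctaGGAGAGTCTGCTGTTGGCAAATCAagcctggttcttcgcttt
Rab5b: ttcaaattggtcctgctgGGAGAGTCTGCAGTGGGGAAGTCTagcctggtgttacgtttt
Rab5c: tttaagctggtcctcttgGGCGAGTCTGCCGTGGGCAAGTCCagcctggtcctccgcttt
Rab21: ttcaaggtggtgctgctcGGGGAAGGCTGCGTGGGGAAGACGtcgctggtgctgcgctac
Rab22a: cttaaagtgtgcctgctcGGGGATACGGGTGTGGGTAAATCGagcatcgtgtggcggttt
Rab31: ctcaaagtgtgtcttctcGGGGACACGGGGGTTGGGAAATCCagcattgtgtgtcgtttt

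The P-loop pattern was found in 52 of the 54 coding sequences, all but Rab40b and Rab40c. Identity was taken over whole coding sequences. The longest shared run was taken over whole transcripts with their untranslated parts, using each gene's transcript with the longest coding sequence. Rab5a and Rab5b were 74.0% identical with a longest shared run of 35 bases. Rab5b and Rab5c were 75.7% identical with a run of 23 bases. Rab22a and Rab31, which are relatives on early endosomes, were 67.7% identical with a run of 13 bases. Among all 1431 pairs of members the highest identity was 78.4% (Rab6a with Rab6b) and the longest shared run was 44 bases. Identity of untranslated parts was not computed, and no source used here says how reads that fit several genes were counted.

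Rab22a, which directs early endosomes towards recycling, had the lowest unadjusted p of all members. It lies on chromosome 2, from 173659760 to 173707343 on the plus strand (GRCm38). Its counts were 200 and 233 in WT and 88 and 77 in cKO, or 12.8 and 15.9 CPM against 5.24 and 5.13 CPM. Both cKO libraries were thus lower and close to each other, and the log2 fold change was -1.46 ± 0.60 (SE). It was the early endosomal member with the lowest FPKM in cKO (0.728 and 0.730), so it added little to the summed level. An exon of the microRNA gene Mir6340 overlaps it on the opposite strand, and no source used here gives the strand setting of the counting. In the authors' deposited tables, which each set 1 cKO library against 1 WT library, Rab22a had log2 values of -1.27 and -1.57 for cKO replicate 1 and of -1.26 and -1.57 for cKO replicate 2, each against WT replicates 1 and 2.

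The Rab5 paralogs, which recruit the early endosomal fusion machinery, differed in direction. Rab5c was at 125 and 118 CPM in WT and at 90.3 and 90.7 CPM in cKO. Its log2 fold change was -0.43 ± 0.19 (SE) and its unadjusted edgeR p 0.0829. Both cKO libraries lay below both WT libraries. Rab5a was far less abundant, at 15.7 and 14.4 CPM in WT and at 16.9 and 16.7 CPM in cKO (0.16 ± 0.44). Its cKO libraries lay above by a small margin, and its exons overlap Pp2d1 on the opposite strand. Rab5b showed no such order, with 130.2 and 186 CPM in WT and 223 and 97.9 CPM in cKO, the highest and the lowest value both in cKO.

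Rab31, a relative of Rab22a on early endosomes and at the trans-Golgi, was the most abundant early endosomal member. It stood at 476 and 400.4 CPM in WT and at 359 and 389 CPM in cKO (-0.23 ± 0.17). In FPKM the groups overlapped (135 and 112.7 in WT, 103.5 and 114.6 in cKO), so its order depends on the scaling. Rab21, which carries integrins inward, was at 11.03 and 3.55 CPM in WT and at 11.2 and 13.9 CPM in cKO (0.78 ± 0.79). Its difference came from 1 low library, WT replicate 2, and without that library the log2 fold change was 0.17.

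The 3 late endosomal and lysosomal members at 5 CPM or more had log2 fold changes above 0, none past the test. Rab7, the late endosomal switch, was at 470.1 and 493 CPM in WT and at 492 and 619 CPM in cKO (0.21 ± 0.18). The first cKO library was level with WT and the second higher, and in FPKM both cKO libraries (189 and 243) lay above both WT libraries (178 and 185). Exons of Gm5577 overlap Rab7 on the opposite strand. Rab9, which returns cargo from late endosomes to the Golgi, was at 49.7 and 46.4 CPM in WT and at 55.3 and 53.1 CPM in cKO (0.17 ± 0.26). Rab9 is X-linked. Xist, the RNA that coats an inactive X, was at 0 and 0 CPM in WT and at 6.97 and 290.4 CPM in cKO. Ddx3y on the Y chromosome was at 94.7 and 89.1 CPM in WT and at 107 and 0 CPM in cKO. The cKO libraries thus differed in their sex-linked RNA, and cKO replicate 2 differed in it from both WT libraries. The part of this in Rab9, and in every other gene compared here, was not tested. Rab7b, which links lysosomes to the Golgi, was at 31.8 and 30.2 CPM in WT and at 29.8 and 43.1 CPM in cKO, with only cKO replicate 2 high. Rab24 and Rab36 stayed under 5 CPM on average, with 0 counts of Rab36 in WT replicate 1 and 101 in WT replicate 2.

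Among phagosomal Rabs, Rab32 was the most abundant. It was at 171 and 169 CPM in WT, and at 201 and 96.7 CPM in cKO, so the cKO libraries lay on either side of a tight WT pair. Its log2 fold change was -0.19 ± 0.38, and 0.24 without cKO replicate 2. Rab34, which helps phagosomes mature, was at 24.8 and 32.6 CPM in WT and at 24.65 and 21.2 CPM in cKO (-0.32 ± 0.37). Its order rests on 24.81 against 24.65 CPM, and in FPKM the groups overlapped. Rab29, which recruits the kinase LRRK2 to membranes, was at 31.8 and 47.0 CPM in WT and at 51.8 and 46.7 CPM in cKO. The gap between its WT libraries was wider than that between its cKO libraries. Rab39 was at 12.6 and 13.5 CPM in WT and at 17.3 and 3.67 CPM in cKO, high in one cKO library and low in the other, as Rab32 was. Rab20, another phagosomal Rab, and Rab42 stayed under 5 CPM on average.

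The recycling and plasma membrane group had no member with separated groups at 5 CPM or more. Rab8a was at 401 and 439 CPM in WT and at 409.6 and 469 CPM in cKO, and Rab8b at 357 and 369.6 CPM in WT and at 301 and 387 CPM in cKO. Rab11a, the marker of recycling endosomes, was at 156 and 141 CPM in WT and at 169 and 138 CPM in cKO. For each of these 3 genes the cKO range enclosed or crossed the WT range, and their log2 fold changes were 0.07 ± 0.16, -0.08 ± 0.19 and 0.05 ± 0.20. Rab11a shares exon sequence with Gm47308 on the same strand. Rab14 was at 357.5 and 285 CPM in WT and at 327 and 260.5 CPM in cKO. Rab10, which carries Toll-like receptor 4 to the surface of macrophages, was at 36.1 and 38.9 CPM in WT and at 31.9 and 71.4 CPM in cKO. Here cKO replicate 2 alone was high, and without it the log2 fold change turned from 0.46 ± 0.47 to -0.24.

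Rab4a, which drives fast recycling, was below 5 CPM on average but differed between the groups in every pair of libraries. Its counts were 102 and 129 in WT and 47 and 0 in cKO, or 6.51 and 8.80 CPM against 2.80 and 0 CPM. A count of 0 in cKO replicate 2 allows up to 3 counts, or 0.205 CPM before scaling, for counting error only. The log2 fold change of -2.44 carried an SE of 2.09, and the authors' deposited tables gave -1.20 and -1.62 for cKO replicate 1 and -7.56 and -7.98 for cKO replicate 2.

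In the ER and Golgi group the most abundant Rab genes had the smallest errors. Rab1b was at 834 and 933 CPM in WT and at 848 and 839 CPM in cKO (-0.07 ± 0.14, the smallest SE of all members). Rab1a was at 620.3 and 584 CPM in WT and at 793 and 588 CPM in cKO (0.20 ± 0.20), with cKO replicate 1 alone high. Rab18, which acts at the ER and on lipid droplets, was at 126 and 116 CPM in WT and at 136 and 155 CPM in cKO (0.27 ± 0.19). Both cKO libraries of Rab18 lay above both WT libraries, and its exons overlap another annotated gene on the same strand. Rab2a, of the early secretory route, had counts of 589 and 358 in WT and 522 and 79 in cKO. Its cKO replicate 1 lay within the WT range, and cKO replicate 2 was far below it.

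Rab43, a Golgi Rab, was low in all libraries and higher in both cKO libraries. Its counts were 6 and 16 in WT and 52 and 60 in cKO, or 0.383 and 1.09 CPM against 3.10 and 4.0 CPM. The log2 fold change was 2.26 ± 1.28 (SE) with an unadjusted edgeR p of 0.143. Its exons overlap Gm45140 on the same strand, and whether any of these reads fell in the overlap was not tested. In the authors' deposited tables it had log2 values of 3.03 and 1.54 for cKO replicate 1 and of 3.44 and 1.94 for cKO replicate 2, in the same order of WT libraries.

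Secretory and ciliary members varied most between the cKO libraries, and also between the WT libraries. Their median sizes of the log2 difference were 1.56 and 1.17 in cKO and 0.41 and 0.42 in WT, over 3 members each at 5 CPM or more. Rab27a, which docks secretory lysosomes and exosome-bearing vesicles, was at 93.4 and 146 CPM in WT and at 125 and 41.9 CPM in cKO. Its first cKO library lay inside the WT range, its second below, and the log2 fold change was -0.52 ± 0.58. Its exons overlap Gm27186 on the same strand. Rab3d, a Rab of secretory granules, had counts of 685 and 855 in WT and of 921 and 3 in cKO. The cKO libraries thus held both the highest and the lowest value. Rab44, another granule Rab, had counts of 98, 51, 92 and 0 in the same order. Rab23, an inhibitor of Hedgehog signalling in cilia, had counts of 157 and 129 in WT and of 91 and 0 in cKO (-1.79 ± 2.09), so both cKO libraries were lower by unequal amounts. Rab28, a ciliary Rab, was at 39.8 and 53.9 CPM in WT and at 43.9 and 99.6 CPM in cKO. Only cKO replicate 2 was high, and without it the log2 fold change turned from 0.62 ± 0.47 to -0.093.

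These cases follow a wider split between the cKO libraries, which also differed in their sex-linked RNA, as given above. The median size of the log2 difference between the 2 WT libraries was 0.15 over the 34 members and 0.27 over all genes at that level. Between the 2 cKO libraries it was 0.53 over the members and 0.59 over all genes. The lowest library was cKO replicate 2 for 15 of the 34 members (44.1%) and for 38.5% of all genes. It was the highest library for 10 members (29.4%) and for 34.6% of all genes. Rab3d, Rab23, Rab2a and Rab39 were the furthest below cKO replicate 1 in cKO replicate 2, and Rab13, at 0.953 and 9.87 CPM, the furthest above. Without cKO replicate 2, the median log2 fold change of the members was 0.02 in place of -0.07.

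**Figure D4:**
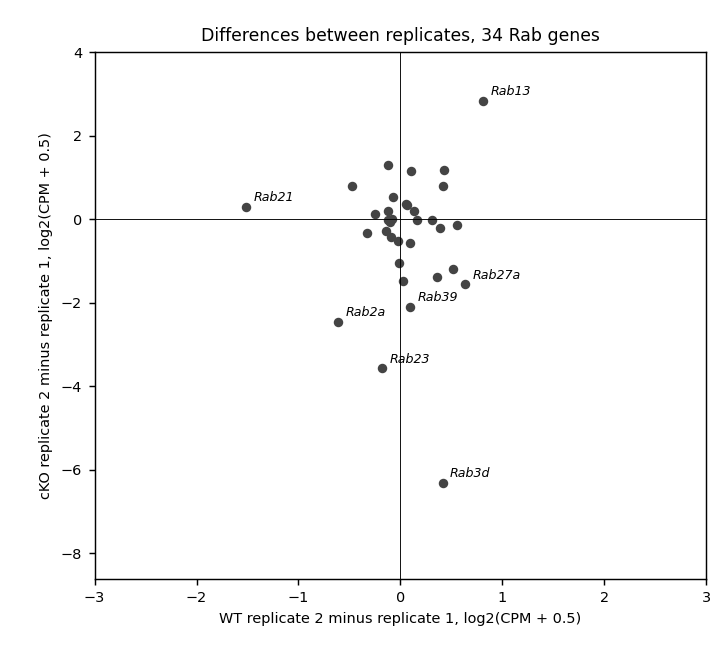
Log2(CPM + 0.5) difference between replicates 2 and 1 in WT (horizontal axis) and in cKO (vertical axis) for the 34 Rab genes at a mean of 5 CPM or more, with the widest named. Points spread far more along the cKO axis (median size 0.53) than along the WT axis (0.15), from Rab3d at the bottom to Rab13 at the top.

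The remaining members were sparse. Counts were found in all 4 libraries for 38 of the 54 members, and 8 members in WT replicate 1, 2 in WT replicate 2, 6 in cKO replicate 1 and 10 in cKO replicate 2 had no count. The 8 members left out of the test for low counts were Rab4b, Rab6b, Rab17, Rab25, Rab26, Rab27b, Rab30 and X-linked Rab33a. Rab26 had 0 and 7 counts in WT and 0 and 96 in cKO, all but a few of them in cKO replicate 2, and its exons overlap Traf7 on the same strand. Rab6b had 26 and 3 counts in WT and 0 in both cKO libraries.

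The authors' deposited tables call a gene at 2-fold or more in 1 library against another, so they carry no replicate error. Of the members listed, the table of cKO replicate 1 against WT replicate 1 called 6 of 50 higher (20.3% of all its genes) and 12 lower (15.8%). Against WT replicate 2 the same library had 5 of 51 members higher (17.2%) and 11 lower (17.6%). For cKO replicate 2, the tables called 7 of 49 higher (18.1%) and 13 lower (28.7%) against WT replicate 1, and 4 of 50 higher (17.1%) and 12 lower (31.7%) against WT replicate 2. Members called lower in all 4 tables were Rab22a and Rab4a (5.22% of genes in all 4), and Rab43 was called higher in all 4 (2.25%). The 4 tables share libraries, so these are not independent calls. In each table the adjusted p was below the p-value for 78.9% to 86.3% of genes, which a usual adjustment does not give, so its p-values are not printed here.

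Of the genes that act on Rab proteins, 0 of 127 tested regulators were past the threshold in edgeR or DESeq2. At an unadjusted edgeR p under 0.05 there were 8 lower and 1 higher, where 2.88% and 1.77% of all genes were. Of the 9, 7 were GTPase-activating proteins. Among these, Sgsm1, Tbc1d30 and Tbc1d12 reached 10 counts in the WT libraries only. They entered the test through WT and could only come out lower, so this tally was partly set by the filter. Among the 107 regulators at 5 CPM or more, both cKO libraries lay above both WT libraries in 13 (12.1%, against 17.1% of all genes) and below in 26 (24.3%, against 19.1%). Of these 26 lower regulators, 10 were among the 29 GTPase-activating proteins at that level, or 34.5% of them, and 6 of the 29 (20.7%) were above. Their median log2 fold change was -0.22, beside -0.02 over all genes. The exchange factors had a median of 0.02, with 3 of 34 above (8.82%) and 6 below (17.6%). Effectors had a median of -0.21, with 2 of 37 above (5.41%) and 8 below (21.6%), so the shares below lay near that of all genes in both lists.

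Tbc1d10b, a GTPase-activating protein for Rab27a and Rab35, had the lowest log2 fold change among regulators at 5 CPM or more. It was at 33.3 and 26.9 CPM in WT and at 5.36 and 7.53 CPM in cKO. Its log2 fold change was -2.22 ± 0.46 (SE), its unadjusted edgeR p 0.00589 and its DESeq2 adjusted p 0.0528. Tbc1d4, which acts on Rab10 and its relatives, was at 111 and 100.3 CPM in WT and at 59.3 and 57.4 CPM in cKO (-0.86 ± 0.22). Both pairs were tight and well apart. Rab3gap2, a subunit of the complex that inactivates Rab3 and activates Rab18, was at 102 and 88.3 CPM in WT and at 49.96 and 53.5 CPM in cKO (-0.88 ± 0.24). Its partner Rab3gap1, named after its values were seen, was at 61.1 and 47.7 CPM in WT and at 63.5 and 62.4 CPM in cKO, so the values of the subunits went in opposite directions. Tbc1d2b was the higher one among the GTPase-activating proteins at an unadjusted p under 0.05, at 16.6 and 17.9 CPM in WT and at 39.5 and 32.9 CPM in cKO (1.07 ± 0.35). Tbc1d12, also named after its values were seen, had counts of 136 and 134 in WT and of 6 and 0 in cKO, with a DESeq2 adjusted p of 0.0620. Sgsm1 and Tbc1d30, with 13 to 32 counts in each WT library and 0 in both cKO libraries, were the remaining GTPase-activating proteins among the 9.

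Of the Rab7 machinery, Mon1a, part of the exchange factor for Rab7, was at 10.2 and 13.1 CPM in WT and at 16.8 and 32.9 CPM in cKO (1.09 ± 0.53). Vps39, a subunit of the tethering complex that binds Rab7, was at 68.1 and 69.7 CPM in WT and at 87.5 and 118 CPM in cKO (0.58 ± 0.25). Both had both cKO libraries above both WT libraries, with cKO replicate 2 the highest. Plekhm1, a Rab7 effector in lysosome fusion, went the other way, at 123 and 136.5 CPM in WT and at 87.3 and 41.5 CPM in cKO (-1.01 ± 0.40). Unc13d, the Rab27a effector of granule release, was at 24.8 and 22.9 CPM in WT and at 11.7 and 7.80 CPM in cKO (-1.29 ± 0.47). Bicd2, a dynein adaptor that binds Rab6, was at 39.2 and 50.2 CPM in WT and at 29.1 and 24.3 CPM in cKO (-0.74 ± 0.33). In both of these effectors the cKO libraries lay below the WT libraries. Among exchange factors, Ric1, part of that for Rab6, was at 21.5 and 18.1 CPM in WT and at 11.02 and 11.7 CPM in cKO, with both cKO libraries lower. Dennd1b, which acts on Rab35, was at 11.5 and 12.01 CPM in WT and at 13.8 and 41.8 CPM in cKO, and Dennd2c at 32.7 and 17.7 CPM in WT and at 51.5 and 43.6 CPM in cKO. None of these passed the adjusted threshold.

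Of the genes for prenylation and recycling of Rab proteins, 7 were at 5 CPM or more and none passed the test. In 2 of the 7 both cKO libraries lay above both WT libraries (28.6%, against 17.1% of all genes). In another 2 both lay below (28.6%, against 19.1%). Rabggtb, the catalytic subunit of geranylgeranyl transferase, was at 47.1 and 54.9 CPM in WT and at 33.6 and 16.9 CPM in cKO (-1.01 ± 0.44). Rabggta, its partner subunit, was at 61.2 and 59.5 CPM in WT and at 51.7 and 39.9 CPM in cKO (-0.40 ± 0.28). In both genes the 2 cKO libraries lay below WT, and cKO replicate 2 was the lowest. Chm, the escort protein of the transferase, overlapped between the groups, at 64.5 and 39.3 CPM in WT and at 49.1 and 20.2 CPM in cKO.

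**Figure D5:**
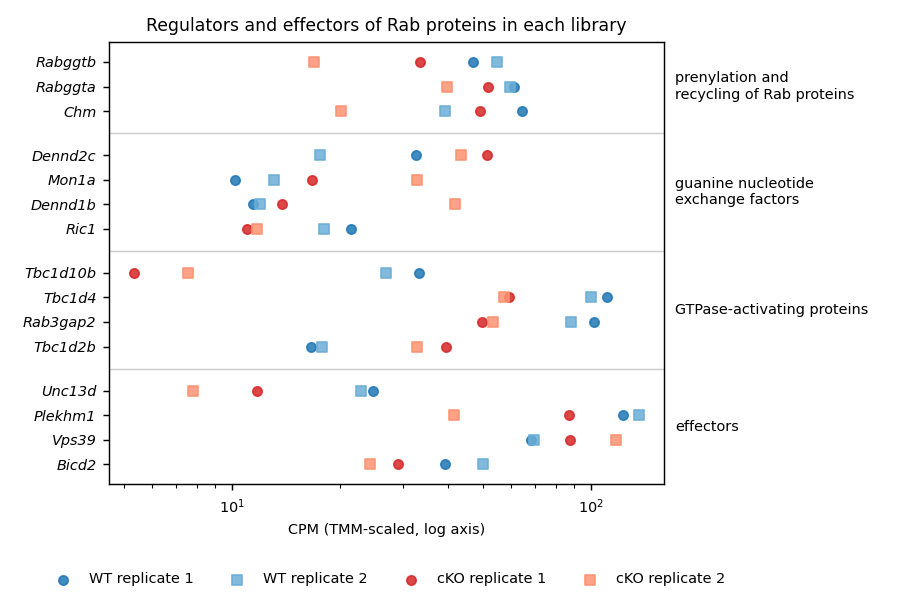
CPM of 15 regulators and effectors of Rab proteins on a log axis, up to 4 per list with the smallest unadjusted p at 5 CPM or more, 1 point per library (circles replicate 1, squares replicate 2, blue WT, red cKO). Tbc1d10b lies at 33.3 and 26.9 CPM in WT and 5.36 and 7.53 CPM in cKO, and Chm is the gene whose groups overlap.

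Promoters of the Rab genes were richer in G and C than most. RefSeq promoters on GRCm38.p6, each running from 250 bases before to 50 after a start, were matched by symbol for 44 of the 54 members, giving 53 promoters. Their median GC content was 62.0%, beside 52.7% over all 32851 promoters. The E-box CACGTG, read on both strands, was present in 6 of the 53 (Rab5a, Rab20, Rab21, Rab23, Rab24 and Rab27a), and in 7.15% of all promoters. A PU.1-type motif, GAGGAAGT, was in those of Rab2b and Rab32 and in 3.20% of all. These are matches of letters and not measured binding, and the genes that carry the E-box had no common direction between the groups.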

How the data were processed

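Illumina libraries were made from total RNA of microglia, 2 WT and 2 cKO, per the labels. Tools named in the submitters' processing notes are TopHat2 2.0.12, Bowtie2 2.2.3 and HTSeq 0.6.0, with mm9 as the build. Annotation and strand setting are not given in the sources used here. Gene positions are given as GRCm38, since 92.1% of 21008 shared genes had the position of GENCODE M21 (48 of the 54 members).

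One deposited table gives the authors' FPKM values of 21044 genes, and 4 others each set 1 cKO library against 1 WT library. Per the file headers, the latter hold read counts, a normalized signal, the ratio of the pair, the log2 of that ratio, a p-value and an adjusted p-value. Counts were joined for 18459 genes, and 4315 of 73836 counts (at most 4 reads) were recovered from the FPKM steps, 100% of them whole within 1e-06. The other 2585 genes were left out of the count test. No pair of replicates was merged, since the chi-square per degree of freedom over genes was 27.8 in WT and 107 in cKO. Total counts were 15855913 and 14973059 in WT and 16770162 and 14645187 in cKO.

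The 54 members, their roles, the 142 regulators and the markers were chosen with earlier results of these data known. Groups were compared with edgeR 4.0.16 in R 4.3.3 (TMM, filterByExpr with a minimum count of 10, quasi-likelihood F test, Benjamini-Hochberg adjusted p under 0.05 over 13086 genes); SE values come from the F statistic. The scripts were tested on simulated data. Alternatives were DESeq2 1.42.0, DESeq2 size factors or no scaling, other filters, limma 3.58.1 on log2(FPKM + 1) or log2(FPKM + 0.1), a replicate block and leaving out each library. Members given in full were the 10 with the highest WT FPKM, those at 5 CPM or more with non-overlapping groups, those at an unadjusted p under 0.05, and those called alike in all 4 of the authors' tables. Up to 4 regulators per list with the smallest p at 5 CPM or more were given in full, apart from 1 that is not reported here. Other members given with values were chosen after their values were seen.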

Additional observations from a re-analysis of the deposited data

How the results depend on the processing

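Of 13086 genes, 0 passed in edgeR and 52 in DESeq2. The count stayed at 0 under the other scalings, filters and limma. Leaving out 1 library gave 0 to 748 genes, 0 to 3 Rab members and 0 to 9 regulators, the highest each time without cKO replicate 1, where the single cKO library is taken to have the spread of the WT pair. The Rab median of -0.07 ran from -0.14 to 0.022 (without cKO replicate 2) with 1 library left out. Same-numbered libraries did not deviate together (r = -0.02 across genes); with the replicate block, 0 genes passed and the median was -0.12. Members above WT in both cKO libraries numbered 4, but 2 at 20 CPM or more, 6 each in FPKM, with DESeq2 size factors and with total counts, and 5 to 13 with 1 library left out. Members below numbered 5 of 34 (19.1% of all genes), but 3 of 24 at 20 CPM or more (18.7%). They numbered 3 in FPKM (16.8%), 3 with total counts (16.7%) and 5 with DESeq2 size factors (18.6%). With 1 library left out, where separation is easier to reach, they numbered 8 to 17 (30.3% to 43.9% of all genes). Rab7 and Rab29 joined the members above in FPKM, and Rab31 and Rab34 left those below. Of 432 values for the 36 genes named by the rule, 8 in 6 genes changed sign, each with 1 library left out. Their lowest and highest values with 1 library left out were -0.15 and 0.0087 for Rab1b (above 0 without WT replicate 2), -0.033 (without cKO replicate 1) and 0.40 for Rab1a, and -0.037 and 0.16 for Rab8a (below 0 without WT replicate 1 and without cKO replicate 2). They were -0.27 and 0.092 for Rab8b (above 0 without cKO replicate 1), -0.82 and 0.24 for Rab32 (above 0 without cKO replicate 2), and -0.10 and 0.19 for Rab11a (below 0 without WT replicate 2 and without cKO replicate 1). The cause was not tested. With 2 libraries a group and a median SE of 0.41 at 5 CPM or more, small differences between the groups were not detectable.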
